A study of Danio rerio with 36 samples.

Results

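The photoreceptor program was followed through 5 genes, 3 transcription factors (*six7*, *crx*, and *nr2e3*) and the alpha subunits of rod and cone transducin (*gnat1* and *gnat2*), in cells sorted from developing zebrafish eyes. They are 5 of the 31540 genes measured, were taken by their Ensembl identifiers (*six7*, ENSDARG00000070107; *crx*, ENSDARG00000011989; *nr2e3*, ENSDARG00000045904; *gnat1*, ENSDARG00000044199; *gnat2*, ENSDARG00000042529), and were selected on their levels in these samples (their log2 CPM in MG and C by stage), so that their values are a description and carry no test. All samples came from control fish that carry the Tg(*GFAP:GFP*) transgene, in which a GFAP promoter drives GFP, and whose eyes were dissociated and sorted into GFP-positive cells (MG, for Müller glia) and GFP-negative retinal cells (C) at 48, 60, 72, 96, 120, and 192hpf (hours post fertilization). Each fraction has 3 columns of values at each stage, 36 in all. The sort rests on GFP alone, the RNA was amplified before sequencing, and the cells of several fish were pooled.

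Vertebrate photoreceptors detect light through an opsin that activates transducin, a G protein whose alpha subunit in turn activates a phosphodiesterase. Rods use Gnat1 and cones use Gnat2, so these genes mark the rod and the cone cascade. Crx is a homeodomain factor that activates genes of both cell types and is also present in bipolar cells. Nr2e3 is a nuclear receptor that promotes rod genes and represses cone genes. Six7 is a homeodomain factor of fish on which the green cone opsins of zebrafish depend.

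Levels are given as CPM (a gene's reads per 1000000 reads of its column). Differences are given as the log2 ratio, that is the log2 of the MG level over the C level of the same stage, positive where MG is higher. In 9 of the 12 groups the 3 columns differed by no more than read sampling and were counted as 1 library. Replicates 1 and 2 of these groups differed by only 0.070 to 0.158 times the spread of read sampling. That is less than separate draws of reads from 1 library would give, so these columns are not separate draws. The 60hpf MG columns were counted as 1 library as well, through replicate 1, although replicates 2 and 3 differed by 1.398 times the spread of read sampling. Hence the spread of columns does not measure biological replication and no p-value is given. Whether the columns of MG and C overlap is likewise a description, given without its share over all genes. A gene was called higher or lower where the libraries were at least 2-fold apart, with 3 reads in the stage's shallower library as the floor (38.0 CPM at 60hpf, and 0.693 to 2.28 CPM at the other stages). The 60hpf MG columns held 63463 to 90846 reads, against 1311849 to 8889893 in the others. At 48hpf, replicate 3 of MG agreed within sampling noise with the 72hpf MG columns (ratios of 0.865 to 0.944 to the spread expected from read sampling, against 137 to replicates 1 and 2). Replicate 3 of 48hpf C differed by less than sampling noise from 48hpf MG replicates 1 and 2 (0.683 and 0.990, against 4.49 to its own group). The 5 genes behaved alike here, as the 95% counting interval of each in these columns held the mean of the group they matched. Hence 48hpf is given with and without replicate 3. Intervals and floors cover counting error only.

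The members were higher in MG in most comparisons, but not together. Over the 30 pairs of a gene and a stage, MG was at least 2-fold higher in 19 and lower in 7, or 16 and 6 without the 48hpf replicate 3 columns. Over all genes, 16.1% of such pairs were higher and 31.7% lower (14.7% and 30.0% without these columns). limma on the columns called 13 pairs higher and 5 lower at the stages other than 60hpf (all genes, 12.1% and 24.0%), where the 2-fold call gave 16 and 6, but columns of 1 library are not replicates. *six7* was higher in MG at every stage from 60 to 192hpf, and the transducins were higher at 60, 72, 96, and 192hpf. *crx* was higher in C at 60, 72, and 120hpf, and *nr2e3* changed sides from stage to stage.

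**Figure D1:**
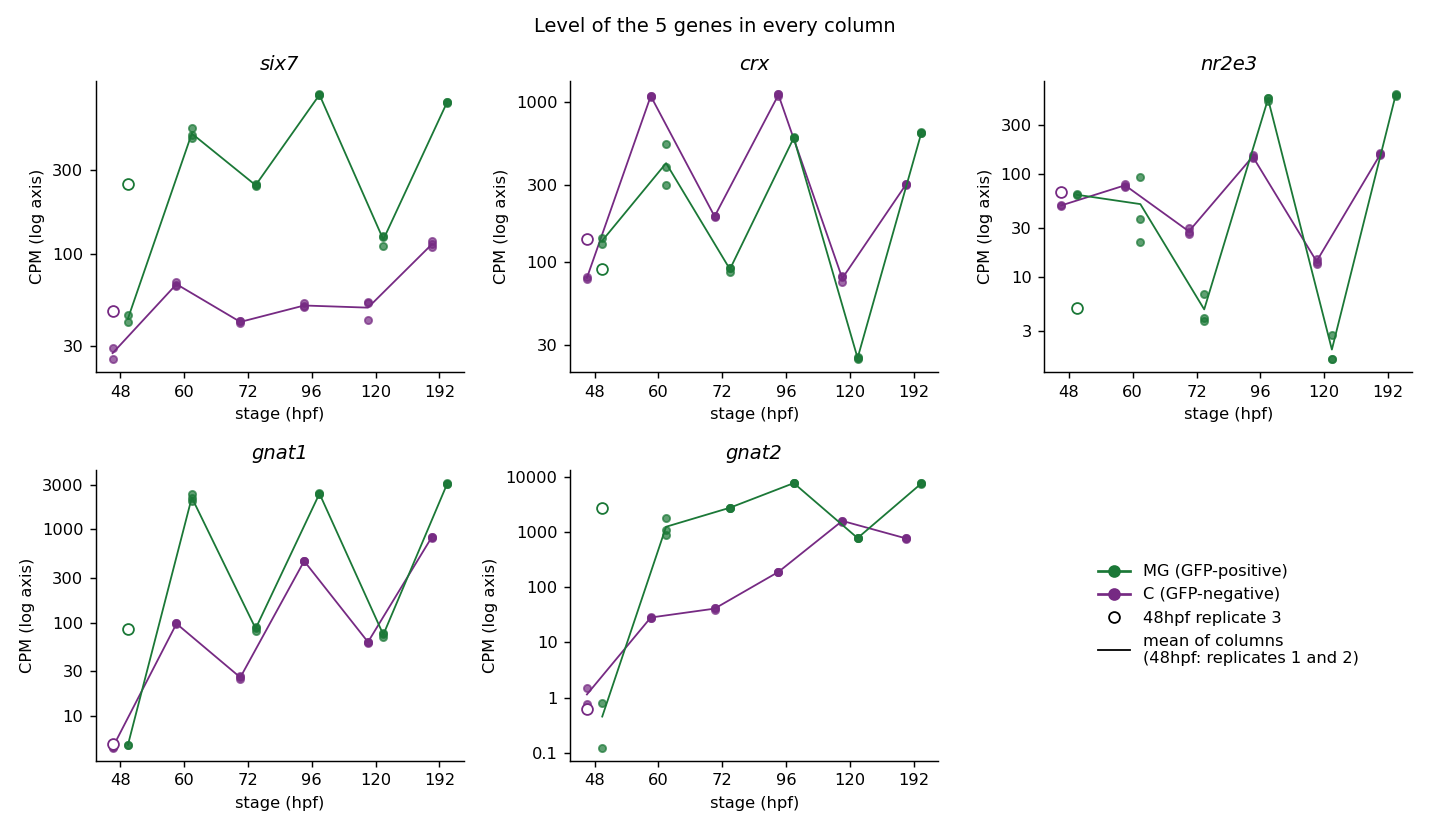
CPM (log axis) of each gene in every column, by stage in hpf, for MG (green) and C (purple). Open points are the 48hpf replicate 3 columns, and lines join the means of the columns (replicates 1 and 2 at 48hpf). The MG lines of *crx*, *nr2e3*, and *gnat1* stand high at 60, 96, and 192hpf or at the last 2 of these, and low at 72 and 120hpf.

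*six7* was higher in MG than in C at each stage from 60hpf. In C its columns held 65.3, 66.3, and 69.4 CPM at 60hpf, 41.3, 41.2, and 40.2 CPM at 72hpf, 50.3, 49.5, and 52.3 CPM at 96hpf, 52.7, 53.3, and 41.9 CPM at 120hpf, and 117, 113, and 109 CPM at 192hpf. In MG they held 473, 520, and 451 CPM at 60hpf, 244, 241, and 249 CPM at 72hpf, 805, 796, and 798 CPM at 96hpf, 126, 124, and 111 CPM at 120hpf, and 721, 728, and 729 CPM at 192hpf. The MG and C columns did not overlap at any of these 5 stages. The group means ran from 40.9 to 113 CPM in C and from 120.1 to 799.6 CPM in MG. Its log2 ratio was 2.84 and 2.58 at 60 and 72hpf. It peaked at 3.98 at 96hpf (95% counting interval 3.82 to 4.14), dropped to 1.29 at 120hpf (1.03 to 1.54), and stood at 2.69 at 192hpf. In the order of levels, MG at 96, 192, 60, 72, and 120hpf came first, each apart from the next, and the columns of 120hpf MG overlapped those of 192hpf C. At 48hpf the columns held 25.2, 29.1, and 47.3 CPM in C and 44.8, 40.6, and 249 CPM in MG. The log2 ratio there was 1.53, and 0.65 without replicate 3, which is under the 2-fold line.

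*crx* was higher in C than in MG through the middle of the time course. Its C columns held 1093, 1093, and 1073 CPM at 60hpf, 193, 193, and 190 CPM at 72hpf, 1115, 1113, and 1089 CPM at 96hpf, 80.0, 81.3, and 74.9 CPM at 120hpf, and 302, 306, and 307 CPM at 192hpf. Its MG columns held 394, 544, and 303 CPM at 60hpf, 91.9, 90.9, and 86.4 CPM at 72hpf, 601, 590, and 594 CPM at 96hpf, 24.7, 24.9, and 25.4 CPM at 120hpf, and 638, 645, and 643 CPM at 192hpf. All MG columns were below all C columns from 60 to 120hpf, and all were above them at 192hpf. For 60, 72, 96, and 120hpf the log2 ratios were -1.39, -1.10, -0.89, and -1.66, and at 192hpf the ratio was 1.07 (0.99 to 1.16). The value at 96hpf was under the 2-fold line, beside a median of -0.64 over all genes, and was -0.29 with TMM scaling. Over the 12 groups, *crx* was highest in 96hpf C and 60hpf C, whose columns overlapped, and lowest in 120hpf MG. At 48hpf C held 80.0, 78.5, and 138 CPM and MG 141, 130, and 89.5 CPM, a log2 of 0.07, or 0.77 without replicate 3.

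Since *crx* is also a bipolar cell gene, the bipolar list was set beside it. Of the 8 bipolar symbols, 7 were matched and 1 (*cabp5a*) was listed at 0 throughout. The summed level of the list ranged from 152 to 4239 CPM over the C libraries and from 80.5 to 715 CPM over the MG libraries. It was 4201 CPM in 60hpf C and 4239 CPM in 96hpf C, the groups in which *crx* was highest, and 715 and 213 CPM in MG at these stages. *vsx1*, a homeobox gene of bipolar cells, made up most of this, with 2456 CPM in 60hpf C and 2782 CPM in 96hpf C. At 192hpf, where *crx* was higher in MG, the list still summed to 1223 CPM in C and 396 CPM in MG. At 120hpf, where *crx* was lower in MG, the list was at 152 CPM in C and 195 CPM in MG. The part of bipolar cells in the *crx* differences was not tested.

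*nr2e3* took the widest range among the factors in MG, from 1.96 CPM at 120hpf to 590 CPM at 192hpf. In C its columns held 27.5, 25.9, and 29.6 CPM at 72hpf, 146, 144, and 154 CPM at 96hpf, 13.5, 14.0, and 15.0 CPM at 120hpf, and 156, 153, and 160 CPM at 192hpf. In MG they held 3.72, 3.98, and 6.75 CPM at 72hpf, 544, 551, and 518 CPM at 96hpf, 1.59, 1.59, and 2.69 CPM at 120hpf, and 593, 581, and 598 CPM at 192hpf. MG thus stood below C at 72 and 120hpf and above it at 96 and 192hpf, with no overlap of the columns. The log2 ratio was -2.52 at 72hpf and -2.85 at 120hpf (-3.92 to -1.98). It was 1.86 at 96hpf (1.74 to 1.98) and 1.92 at 192hpf (1.81 to 2.03). The highest levels were in 192hpf MG and 96hpf MG, followed by 192hpf C and 96hpf C, which overlapped, and the lowest was in 120hpf MG. At 60hpf the MG columns (36.4, 94.5, and 22.0 CPM) overlapped those of C (75.6, 76.7, and 80.9 CPM), and with a mean of 3.67 reads a column a difference was not detectable at this depth (log2 of -0.61, counting interval -2.50 to 0.75). At 48hpf the direction hung on replicate 3. C held 48.6, 50.3, and 67.2 CPM, and MG held 62.3, 63.6, and 4.98 CPM, which gave a log2 of -1.70 with replicate 3 and 0.35 without it.

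*gnat1*, the rod transducin, was at 4.55 to 4.97 CPM in all 3 columns of 48hpf C and at 4.90 and 4.86 CPM in replicates 1 and 2 of 48hpf MG. Replicate 3 of 48hpf MG held 85.2 CPM. In C the later columns held 97.8, 98.0, and 96.3 CPM at 60hpf, 26.2, 24.5, and 26.6 CPM at 72hpf, 459, 457, and 458 CPM at 96hpf, 62.2, 62.3, and 61.1 CPM at 120hpf, and 818, 832, and 835 CPM at 192hpf. Both fractions moved up and down together, and MG was the higher at each of these stages. The MG columns held 2175, 2419, and 2003 CPM at 60hpf, 88.5, 89.1, and 81.2 CPM at 72hpf, 2429, 2458, and 2393 CPM at 96hpf, 77.0, 75.3, and 70.4 CPM at 120hpf, and 3074, 3155, and 3039 CPM at 192hpf. The log2 ratio reached 4.50 at 60hpf (4.23 to 4.73), and was 1.74, 2.41, and 1.90 for 72, 96, and 192hpf. At 120hpf it was 0.26 (0.02 to 0.51), under the 2-fold line. At 48hpf it was 2.10, or 0.10 without replicate 3. *gnat1* was highest in 192hpf MG, and 96hpf MG and 60hpf MG came next with overlapping columns.

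*gnat2*, the cone transducin, showed the widest differences of the 5 genes. At 48hpf it was at 0.76, 1.52, and 0.62 CPM in C and at 0.78 and 0.12 CPM in replicates 1 and 2 of MG, all under the floor of 2.28 CPM, while replicate 3 of MG held 2762 CPM. With replicate 3 the log2 ratio was 5.12, and without it both fractions were under the floor and no value is given. C then held 28.6, 28.1, and 28.1 CPM at 60hpf, 41.8, 42.3, and 38.7 CPM at 72hpf, 188, 191, and 190 CPM at 96hpf, 1609, 1613, and 1550 CPM at 120hpf, and 770, 773, and 752 CPM at 192hpf. In C the gene was thus at its highest at 120hpf, where *crx* and *nr2e3* were at their lowest or close to it. MG held 1091, 1765, and 881 CPM at 60hpf, 2767, 2748, and 2750 CPM at 72hpf, 7698, 7738, and 7637 CPM at 96hpf, 784, 781, and 766 CPM at 120hpf, and 7566, 7592, and 7659 CPM at 192hpf. The MG columns were above those of C at 60, 72, 96, and 192hpf and below them at 120hpf. The levels of 96hpf MG and 192hpf MG overlapped at the top, and the columns of 120hpf C overlapped those of 60hpf MG. At 60hpf the log2 ratio was at least 5.03 against the floor (5.46 from the reads). It was 6.07 at 72hpf (5.85 to 6.31), 5.34 at 96hpf, and 3.31 at 192hpf, and fell to -1.03 at 120hpf (-1.09 to -0.98). The value at 120hpf stayed negative but fell short of 2-fold under TMM scaling (-0.88). That scaling rests on a trimmed mean of log ratios over genes, and left a median of -0.31 over all genes at 120hpf.

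**Figure D2:**
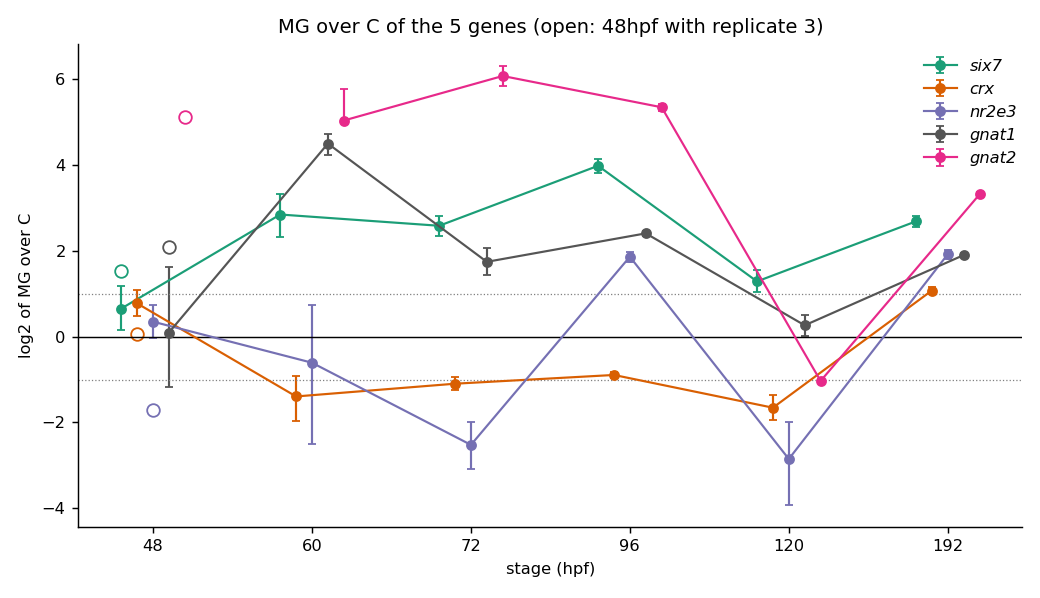
log2 ratio of MG over C (y axis) for the 5 genes by stage in hpf. Filled points leave out the 48hpf replicate 3 columns, open points at 48hpf hold them, bars are 95% counting intervals, the dotted lines mark 2-fold, and *gnat2* at 60hpf is a lower bound. At 120hpf *six7* alone stood above the upper dotted line (1.29), and at 192hpf all 5 genes did.

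By stage, the count of members ran as follows. At 60hpf 3 of 5 were higher in MG and 1 lower, beside 8.98% and 29.3% of all genes. At 72hpf 3 were higher and 2 lower (all genes, 29.1% and 28.9%). At 96hpf 4 were higher and 0 lower by the 2-fold call (9.05% and 34.7%). At 120hpf 1 was higher and 3 were lower (25.4% and 40.1%), and at 192hpf all 5 were higher (9.45% and 27.8%). At 48hpf 3 were higher and 1 lower with replicate 3 (11.6% and 28.5%), and 0 of the 4 with a value were called in either direction without it (2.83% and 18.3%). Among all genes with a value, *gnat2* ranked 31 of 15202 by its log2 ratio at 72hpf, 22 of 15992 at 96hpf, and 9072 of 14986 at 120hpf. In bulk samples, fewer cells of a type and less RNA per cell cannot be told apart.

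The cone and the rod transducin were then compared within the same libraries, where the scaling of a column cancels. The log2 ratio of *gnat2* exceeded that of *gnat1* by at least 0.54 at 60hpf against the floor, under which *gnat2* lay in C (0.96 from the reads, counting interval 0.53 to 1.40). It did so by 4.33 at 72hpf (3.96 to 4.70), by 2.94 at 96hpf (2.84 to 3.04), and by 1.41 at 192hpf (1.35 to 1.48). At 120hpf the order was turned, with a difference of -1.30 (-1.54 to -1.05). Among the factors, *crx* stayed below *six7* at every stage from 60hpf, with a difference of -4.87 at 96hpf and -1.61 at 192hpf. *nr2e3* was below *crx* at 72hpf (-1.42) and 120hpf (-1.20), and above it at 96hpf (2.75) and 192hpf (0.84). Its difference from *gnat1*, the transducin of the rods, was -4.26 at 72hpf and -3.11 at 120hpf, against -0.54 at 96hpf and 0.02 at 192hpf (-0.10 to 0.14). At 60hpf that difference was -5.11 (-6.61 to -3.60), with a mean of 3.67 *nr2e3* reads a column in MG. The rod factor and the rod transducin thus had about the same excess in MG at 192hpf and differed widely at 60, 72, and 120hpf. The intervals count reads, and each stage has 1 library a fraction.

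**Figure D3:**
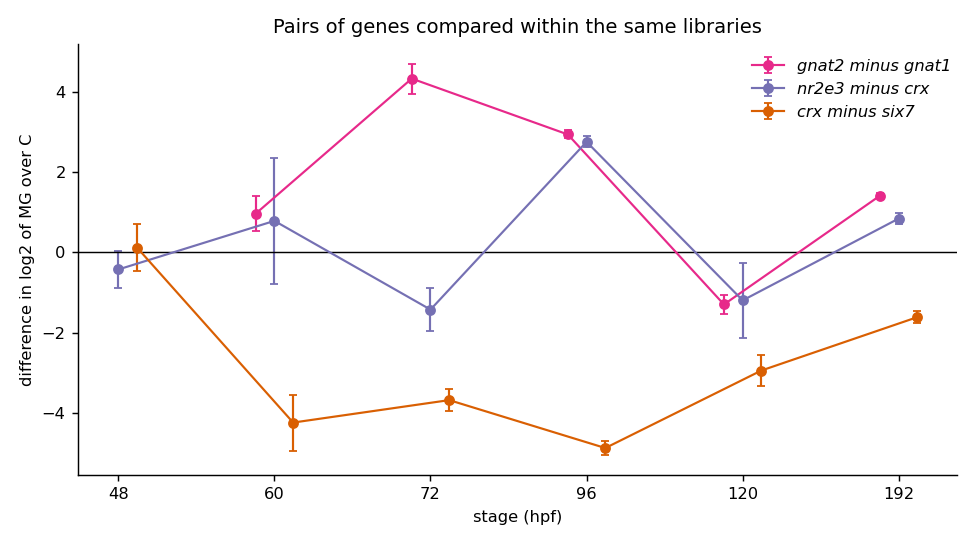
Difference between a pair of genes in their log2 ratio of MG over C (y axis), by stage in hpf, with 95% counting intervals and without the 48hpf replicate 3 columns. The points come from the reads without the floor. The line of *gnat2* minus *gnat1* is above 0 at 60, 72, 96, and 192hpf and at -1.30 at 120hpf.

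Along the time course, members fell and rose in turn. From 96 to 120hpf all 5 fell at least 2-fold in MG, beside 46.6% of all genes. The fall was 275-fold for *nr2e3*, 32.7-fold for *gnat1*, 23.8-fold for *crx*, 9.90-fold for *gnat2*, and 6.66-fold for *six7*. In C, *crx* fell 14.0-fold, *nr2e3* 10.5-fold, and *gnat1* 7.41-fold (49.6% of all genes fell 2-fold), *gnat2* rose 8.40-fold (13.3% of all genes rose), and *six7* was at 50.7 and 49.3 CPM. From 120 to 192hpf all 5 rose at least 2-fold in MG (51.6% of all genes did), by 302-fold for *nr2e3* and 41.6-fold for *gnat1*. In C 4 of 5 rose (52.7% of all genes), and *gnat2* fell 2.08-fold (11.2%).

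The 72hpf libraries stood low in a like manner. From 60 to 72hpf, *crx* fell 4.61-fold and *gnat1* 25.5-fold in MG (20.5% of all genes fell, and 30.9% rose), while *gnat2* rose 2.21-fold. *nr2e3* went from 51.0 to 4.82 CPM in MG, from a level close to the floor of the 60hpf libraries. In C, *crx*, *gnat1*, and *nr2e3* fell 5.66-, 3.78-, and 2.81-fold (55.3% of all genes fell), and *six7* and *gnat2* moved less than 2-fold. From 72 to 96hpf all 5 rose in MG (40.2% of all genes), and 4 of 5 in C (56.6%), *six7* being the exception at 40.9 and 50.7 CPM. From 48hpf (replicates 1 and 2) to 60hpf, *crx* went from 79.2 to 1087 CPM in C, and *gnat2* from under the floor to 28.3 CPM.

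The scaling of the columns moved with these steps. TMM factors were 0.589 to 0.745 in the 72hpf, 120hpf, and 48hpf MG replicate 3 columns, and 0.907 to 1.56 in the 60, 96, and 192hpf columns. Opsins took up 0.0188 to 0.112% of the reads of the first and 0.0769 to 23.8% of the reads of the second. The other 5 columns of 48hpf had factors of 1.08 to 1.55 with the lowest opsin shares, 0.0008 to 0.0031%. With TMM scaling the falls from 96 to 120hpf in MG remained, at a log2 of -7.63 for *nr2e3*, -4.56 for *gnat1*, -4.11 for *crx*, -2.84 for *gnat2*, and -2.27 for *six7*, beside a median of -0.29 over all genes. In C the falls from 60 to 72hpf shrank to -0.64 for *gnat1* and -0.21 for *nr2e3*, and *crx* stood at -1.22, while *gnat2* went from a log2 of 0.54 to 1.81, past 2-fold, and *six7* turned from -0.71 to 0.57. The rises of *crx* and *six7* in C from 120 to 192hpf shrank to 0.97 and 0.22, that of *gnat2* from 72 to 96hpf shrank to 0.97, and *six7* turned to -0.93 there. Markers of some other retinal cells moved with these stages too. The ganglion cell list summed to 9731 and 2602 CPM in C at 72 and 120hpf, against 626, 305, and 239 CPM at 60, 96, and 192hpf. In MG it stood at 2945 and 2965 CPM, against 376, 228, and 370 CPM. The amacrine list in MG was at 2341 and 2384 CPM, against 1244, 526, and 700.4 CPM. In C the amacrine list did not follow, at 719 and 1115 CPM, against 1907, 943, and 749 CPM. The summed pigment cell genes were higher in MG at 120hpf (387 CPM, and 56.4 CPM in C) and higher in C at 72, 96, and 192hpf. At 60hpf none of them had a value above the floor. At 48hpf 2 of 6 were lower in MG and 0 higher without replicate 3 (all genes, 18.3% and 2.83%). The part of the libraries and of other cells in the ups and downs was not tested.

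The other genes of the cone cascade were read from a list of 28 identifiers, 6 of which, *pde6c* and *gngt2b* among them, were listed at 0 in every column. MG was at least 2-fold higher in 12 of 17 genes with a value at 60hpf, 18 of 21 at 72hpf, 19 of 22 at 96hpf, 4 of 22 at 120hpf, and 18 of 22 at 192hpf. It was lower in 1, 2, 2, 6, and 2, and with TMM scaling the 6 at 120hpf became 3. No share of all genes is given for TMM scaling, in this list or the others. Over all genes 8.98%, 29.1%, 9.05%, 25.4%, and 9.45% were higher, and 29.3%, 28.9%, 34.7%, 40.1%, and 27.8% lower. The list's median log2 ratio was 2.42, 4.04, 4.72, -0.14, and 2.85 at these stages, against -0.50, -0.00, -0.64, -0.47, and -0.36 over all genes. At 48hpf 15 of 21 were higher with replicate 3 (median 1.74), and 2 of 13 without it (all genes, 11.6% and 2.83%). *gnat2* lay above the list's median at 60, 72, 96, and 192hpf and below it at 120hpf.

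Without TMM scaling *gnat2* had its highest log2 ratio at 72hpf (6.07, against 5.34 at 96hpf), which the subunit genes *gnb3b* and *gngt2a* did not share. With TMM scaling *gnat2* was highest at 96hpf instead (5.95, against 5.79 at 72hpf). *gnb3b*, a beta subunit of cone transducin, had log2 ratios of 6.32, 4.82, 5.82, -1.29, and 3.76 for 60, 72, 96, 120, and 192hpf. *gngt2a*, the gamma subunit, had 3.45, 2.72, 5.01, 0.35, and 4.46. From 60hpf on both were lowest at 120hpf, as was *gnat2*. *gnb3a*, the other *gnb3* gene of the list, went the opposite way and was lower in MG from 60hpf on, with log2 ratios of -1.89 at 72hpf and -4.26 at 96hpf. Whether its reads come from cones was not tested. *grk1b* and *rcvrn3*, an opsin kinase and a recoverin, were higher in MG at all of 60 to 192hpf, with 1.26 and 1.29 at 120hpf. Also called at 4 or more stages were *cngb3.1*, *cngb3.2*, *guca1c*, *gucy2d*, *gucy2f*, *pde6ha*, *rcvrna*, and identifiers with the symbols ARR3, CNGA3, GRK7, RCVRN, and RGS9, of which *cngb3.2* had 3 such stages without the 48hpf replicate 3 columns. These stood between 0.23 and 4.16 at 60hpf and between 2.39 and 5.75 at 96hpf. For genes whose C level at 60hpf lay under the floor of 38.0 CPM, the 60hpf values are lower bounds. The CNGA3 identifier (ENSDARG00000070726) had 5.20 at 72hpf and 4.71 at 96hpf. Its value at 60hpf, 3.64, is such a lower bound. Whether it was highest at 72hpf, as was *gnat2* without TMM scaling, is therefore not settled. With TMM scaling its values were 4.91 at 72hpf and 5.32 at 96hpf. The ARR3 identifier (ENSDARG00000098475), a cone arrestin, reached its highest value, 5.47, at 120hpf, where *gnat2* was lower in MG. Its C level there was 1.52 CPM, close to the floor of 0.97 CPM. Its MG level was 67.6 CPM at 120hpf, against 504 and 1180 CPM at 96 and 192hpf.

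Of the rod cascade, 18 identifiers were matched and 3 were listed at 0 throughout. MG was higher in 5 of 10 at 60hpf, 10 of 15 at 72hpf, 13 of 15 at 96hpf, 5 of 15 at 120hpf, and 13 of 15 at 192hpf, and lower in 0, 1, 0, 3, and 0 by the same call. Over all genes 8.98%, 29.1%, 9.05%, 25.4%, and 9.45% were higher, so that the count higher at 120hpf was near the background. The shares of all genes lower were 29.3%, 28.9%, 34.7%, 40.1%, and 27.8%. The rod list's medians were 0.93, 2.44, 2.29, 0.08, and 1.51, below those of the cone list at 60, 72, 96, and 192hpf. At 48hpf 7 of 14 were higher with replicate 3 (all genes, 11.6%), or 12 with TMM scaling, which raised all ratios there by 0.62. Without replicate 3, 0 of 4 were higher and 2 lower (all genes, 2.83% and 18.3%). *gngt1*, the gamma subunit that pairs with Gnat1, had log2 ratios of 3.60, 0.74, 2.67, -1.24, and 1.51 over the same stages, and so was under the 2-fold line at 72hpf. The rod arrestins *saga* and *sagb* had 2.12 and 2.43 at 96hpf and 0.55 and 0.71 at 120hpf. *pde6a* and *pde6b*, the catalytic subunits of the rod phosphodiesterase, were alike at 72hpf (3.53 and 3.51) and apart at 120hpf (3.27 and -1.39). Further genes called at 4 or more stages were *cngb1a*, *cngb1b*, *guca1a*, *rom1a*, and identifiers with the symbols CNGA1 and ROM1. Without the 48hpf replicate 3 columns *cngb1b* and *rom1a* were called at 3 stages each. Of the opsins with a value, 5 of 6 were higher in MG at 96hpf (9.05% of all genes) and 1 of 4 at 120hpf (25.4%). At both stages 0 were lower (34.7% and 40.1% of all genes). *rho* and *opn1mw1* had 2.78 and 6.03 at 96hpf and -0.05 and -0.49 at 120hpf, while *opn1sw1*, the ultraviolet cone opsin, kept 2.57 at 120hpf.

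**Figure D4:**
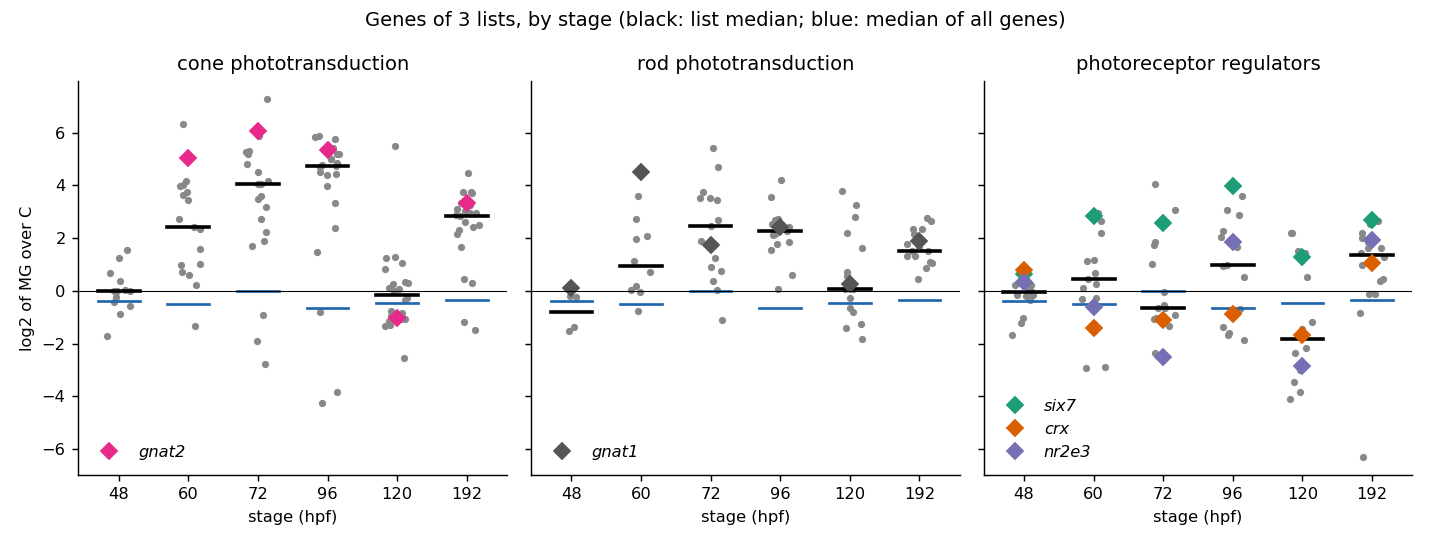
log2 ratio of MG over C (y axis) of each gene with a value (grey points) in the cone, rod, and regulator lists, by stage in hpf, without the 48hpf replicate 3 columns. Black bars are list medians, blue bars the medians of all genes, and diamonds the 5 members, which are not in the lists. The black bars of the cone list are at 4.72 at 96hpf and -0.14 at 120hpf.

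Other photoreceptor and retinal regulators (18 identifiers, 2 at 0 throughout) stood on both sides, as did the 3 member factors. MG was higher in 5 of 13 at 60hpf, 5 of 15 at 72hpf, 7 of 15 at 96hpf, 4 of 14 at 120hpf, and 9 of 16 at 192hpf, and lower in 2, 5, 4, 9, and 1. Over all genes 8.98%, 29.1%, 9.05%, 25.4%, and 9.45% were higher, so that the counts higher at 72 and 120hpf were near the background. The shares of all genes lower were 29.3%, 28.9%, 34.7%, 40.1%, and 27.8%. With TMM scaling, which raised all ratios at 96hpf by 0.61, 10 of these regulators were higher and 2 lower at that stage. The shares above are without that scaling and are no background for these 2 counts. At 48hpf 3 of 15 were higher and 3 lower (all genes, 11.6% and 28.5%), or 0 and 3 without replicate 3 (2.83% and 18.3%). With TMM scaling, which raised all ratios at 48hpf by 0.62, the counts with replicate 3 were 5 and 2. Medians were 0.45, -0.65, 0.97, -1.81, and 1.35 from 60hpf. *thrb*, the thyroid hormone receptor of red cones, and *mef2cb*, a MADS box factor, were higher in MG at all 5 stages from 60hpf, as was *six7*. *thrb* had 2257 CPM at 72hpf and 2322 CPM at 120hpf in MG, against 576, 296, and 315 CPM at 60, 96, and 192hpf, and so was high at the stages at which *crx* and *gnat1* were low. *rx2*, a retinal homeobox gene, was higher at these 5 stages too, with 995 CPM in MG at 120hpf, and at 72hpf it was just 2-fold higher (212 and 106 CPM) and fell to a log2 ratio of 0.72 under TMM scaling. *samd7* had 3.07 at 96hpf and -2.35 at 120hpf, *neurod1* 0.53 and -2.87, and *rx1* 2.27 and -4.08. *rorb* and *tbx2b* were lower in MG at 60, 96, and 120hpf, with -2.88 and -2.93 at 60hpf and -3.83 and -1.19 at 120hpf. With TMM scaling the ratios of both at 96hpf, -0.997 and -0.748, were under 2-fold.

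The dip at 120hpf was counted for the members and the lists of photoreceptor genes, and not for the marker lists of other cells. For all 5 members the log2 ratio was lower at 120hpf than at both 96 and 192hpf, as it was for 18 of 22 cone genes, 10 of 15 rod genes, and 9 of 14 regulators. Among the 13592 genes with a value at these stages it was so for 43.6%. Outer segment genes gave 13 of 17, and 16 of 17 of them were higher in MG at 96hpf (9.05% of all genes) and 5 of 17 at 120hpf (25.4%). At 120hpf *six7* kept a 2-fold excess in MG, *gnat1* had close to equal levels (74.2 and 61.8 CPM), and *gnat2*, *crx*, and *nr2e3* were higher in C.

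The sorted fractions were checked by Müller glia genes. Of 12 symbols 9 were matched. Their summed level was 2917 to 20774 CPM over the MG libraries and 877 to 4877 CPM over the C libraries, and MG exceeded C at each stage, replicate 3 of 48hpf C (3528 CPM) aside. By gene, MG was 2-fold higher in 3 of 6 with a value at 60hpf, 5 of 9 at 72hpf, 8 of 9 at 96hpf, 3 of 9 at 120hpf, and 7 of 9 at 192hpf, and lower in 0, 1, 0, 2, and 1. Of all genes, 8.98%, 29.1%, 9.05%, 25.4%, and 9.45% were higher at these stages, so that the count higher at 120hpf was near the background. The shares of all genes lower were 29.3%, 28.9%, 34.7%, 40.1%, and 27.8%. At 48hpf MG was higher in 2 of 9 and lower in 3 (all genes, 11.6% and 28.5%). Without replicate 3 it was higher in 1 of 8 and lower in 0 (2.83% and 18.3%). The summed level was 20774 CPM in 96hpf MG and 18370 CPM in 192hpf MG, the groups with the most *nr2e3*, *gnat1*, and *gnat2*, and 2917 to 3900 CPM in the other MG libraries. *gfap* itself reached at most 17.3 CPM (96hpf MG). It was listed at 0 in 60hpf MG, where a level of that size would lie under the floor of 38.0 CPM and could be missed. *glula* (glutamine synthetase) held 6311 CPM in 96hpf MG. Photoreceptor genes and Müller glia genes thus were both high in MG at 96 and 192hpf. The part of photoreceptors within the GFP gate was not tested.

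Likeness over the 13 libraries other than 60hpf MG was taken as Pearson's r of log2(CPM + 1), among 13303 genes at 5 CPM or more in at least 2 libraries. All genes of a library share its depth, its scaling, and its stage, and r is a description. The 13 libraries include 48hpf MG replicate 3, which matched the 72hpf MG columns within read sampling (ratios of 0.865 to 0.944). They also include 48hpf C replicate 3, which matched 48hpf MG replicates 1 and 2 (0.683 and 0.990). The same material may thus enter r more than once, and r without these replicate 3 columns was not computed. Among the members, *gnat1* and *gnat2* had an r of 0.82, *gnat2* and *six7* 0.81, *crx* and *nr2e3* 0.81, and *gnat1* and *six7* 0.78. *crx* and *gnat1* had 0.57, *gnat1* and *nr2e3* 0.49, *nr2e3* and *six7* 0.25, *crx* and *six7* 0.23, *crx* and *gnat2* 0.10, and *gnat2* and *nr2e3* -0.02. The members thus fell into a set of *six7*, *gnat1*, and *gnat2* and a pair of *crx* and *nr2e3*, with *gnat1* between them.

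Among all genes, *gnat1* was most like *rho* (0.99), followed by *arl3l2*, *si:dkey-226n24.1*, *saga*, and HAGH (0.98 for each but *arl3l2*, at 0.99). *gnat2* was most like *rcvrn3* (0.99), *prph2b* (0.99), a disc rim protein of outer segments, and *glula* (0.98), then CKMT2 and *grk1b* (both 0.97). *glula* is a Müller glia gene, and stood beside cone genes in this order. *crx* was most like ENSDARG00000097813 (0.998), an identifier with a clone name, then one with the symbol CRX (ENSDARG00000043483, 0.97), *cahz*, *atp6v1e1b*, and ITM2C. How far reads are shared between *crx* and these identifiers is unknown. *nr2e3* was most like ICMT (0.97), GPX4, NUCB2, *proza*, and MEST, and *six7* was most like INHBA (0.97), *ppp1r18*, and CA14, with *cdc42ep1b* also among its first 5.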

How the data were processed

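Eyes of Tg(*GFAP:GFP*) zebrafish were dissociated, and GFP and non-GFP cells were sorted by the study into RNA that was amplified and sequenced. The labels' processing notes name Trimmomatic, HISAT2, SAMtools, limma, DESeq2, and edgeR without versions. Genome builds differ between these notes and the study's methods, so no coordinates are given. Values are log2 CPM, which the authors deposited for 31540 genes in 36 columns, with a prior of 0.25 read scaled to the library size and without TMM factors. Reads were recovered from them, as low values lie on steps of 0.01 read (100% within 0.0005 read). No column was left out.

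Within each group, pairs of columns were set against each other by a chi-square over genes with 20 reads or more, and pairs whose median was up to 1.1 times that of read sampling were merged into 14 libraries, a column joining through any 1 such pair. Joined columns were averaged. CPM under 3 reads were set to this floor, genes at the floor in MG and C got no value, the libraries of a 48hpf group were averaged as log2, and 2-fold differences were called without a p-value. Counting intervals are 95% (exact Clopper-Pearson for a ratio, exact Poisson for a level, and a normal approximation for a difference between genes). TMM factors trimmed log ratios at 0.3 and abundances at 0.05. As an alternative, limma 3.58.1 (R 4.3.3, 12 group means, a trend, Benjamini-Hochberg per stage) was fitted on columns for 19046 genes with 1 CPM in 3 columns. Its 60hpf calls were not counted, since on simulated columns of that depth it called unchanged genes. The other steps were tested on simulated data as well. Python 3.11.15, numpy 2.4.6, pandas 2.3.3, scipy 1.17.1, and matplotlib 3.10.9 were used.

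The members and lists were chosen with earlier results of these data known. Named are the members, list genes 2-fold apart at 4 or more stages or else the most abundant of a list, and the 5 named genes most like each member, of which 1 for *six7* is not reported here. The exceptions (*cabp5a*, *vsx1*, *gfap*, *glula*, *pde6c*, *gngt2b*, *prph2b*) were picked after their values were seen. Symbols came from the study's tables and a name table that covers 82.7% of the identifiers, and several zebrafish genes carry an upper-case symbol there. Alternatives were TMM scaling, a floor of 10 reads, no floor with a pseudocount of 1 CPM, a 5 CPM filter, each replicate left out, the 48hpf replicate 3 columns left out, limma with and without a replicate block, and, added after the data were seen, the stages without 60hpf. No sequences are shown, as none were at hand.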

Additional observations from a re-analysis of the deposited data

Results flagged for a closer look

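Of the members, 3 were at least 2-fold higher in MG at one stage and at least 2-fold lower at another, between libraries and with no overlap of the MG and C columns. No share of all genes called both ways is given, so the count is a description. Of all genes, 40.1% were lower in MG at 120hpf, and 29.1% and 9.45% were higher at 72 and 192hpf. For *crx* the log2 ratio of MG over C was 1.07 at 192hpf and -1.66 at 120hpf. *gnat2* had 6.07 at 72hpf and -1.03 at 120hpf, the latter -0.88 with TMM scaling and so under 2-fold. *nr2e3* had 1.92 at 192hpf and -2.85 at 120hpf. The difference between stages was not tested, since each has 1 library a fraction.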

How the results depend on the processing

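Of the 30 pairs of a member and a stage, the count higher in MG (19) stayed within 13 to 19 over the alternatives. The count of pairs lower (7) stayed within 5 to 8. Over all genes, 16.1% of such pairs were higher and 31.7% lower. Leaving out 1 replicate gave 16 to 19 higher and 6 to 8 lower. Without 60hpf, an alternative added after the data were seen, 16 were higher and 6 lower. limma on the columns, whose 60hpf calls were not counted, called 57 cone genes and stages higher, both with and without the replicate block, in place of 74 by the 2-fold call without 60hpf (86 with it). It called 0 rod genes and stages lower in place of 4, with and without the block, and 2 at an unadjusted p under 0.05. Over all genes limma made 34410 calls, 34273 with the replicate block and 36223 without the expression filter. Same-numbered MG and C columns did not deviate together (0 of 18 correlations over 0.1, from -0.19 to 0.03, and 9 of 18 columns closest to their own number), so the samples share only a number. *nr2e3* at 48hpf turned from -1.70 to 0.35 without the 48hpf replicate 3 columns, and ranged from -1.71 to 0.35 with 1 replicate left out at all stages. Of the other values of the members under alternatives, 293 moved by no more than the spread between columns and 27 by more, without a change of sign in a called value. At 48hpf that spread includes the replicate 3 columns, so the tally says little about this stage. Without these columns *gnat1* (2.10 to 0.10) and *six7* (1.53 to 0.65) lost their 2-fold call there, yet count among the 293. *gnat2* at 48hpf had no value without them and was not counted. TMM scaling moved the log2 ratios of all genes together (0.62, 0.21, -0.28, 0.61, 0.16, and 0.41 in the order of the stages) and took *gnat2* at 120hpf below 2-fold (-0.88). A floor of 10 reads took *gnat2* at 60hpf to at least 3.30. Depth limits 60hpf MG most, where *nr2e3* rests on a mean of 3.67 reads a column.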
